A study of Mus musculus with 6 samples.

Results

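Syndecans and glypicans are the families of cell surface proteoglycans that carry most of the heparan sulfate on animal cells. They were followed here at the mRNA level as the rows of the deposited expression table with the symbols Sdc1 to Sdc4 and Gpc1 to Gpc6, which gave 10 genes of 29955, and all 10 had reads and were tested. RNA-seq had been made from mouse embryo fibroblasts (MEFs), primary connective tissue cells of the embryo, at passage 3, with 3 libraries labelled Rnf40+/+ and 3 labelled Rnf40-/-. RNF40 is a subunit of the E3 ligase that monoubiquitinates histone H2B. The Rnf40-/- cells came from Rosa26-CreERT2, Rnf40 loxP/loxP MEFs, in which exons 3 and 4 of Rnf40 lie between loxP sites and Cre is made in all cells and is active only with 4-hydroxytamoxifen. They had received 250 nM of it for 5 days and then grown for 3 days without it. Whether the Rnf40+/+ cells received the drug or carried the Cre transgene is not stated in the sources used here, so genotype, drug and Cre cannot be told apart. The labels do not say that replicates came from separate embryos, so p-values measure only the spread between these libraries, which may be technical.

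The library depth was between 17053436 and 26344170 reads on genes. A value below is a normalized read count, the number of reads of a gene divided by the size factor of its library, and fold changes are log2 values of Rnf40-/- over Rnf40+/+ with the standard error (SE) of limma and a p adjusted over 16378 genes. Rnf40 itself measured 1278, 1195 and 1096 with the label Rnf40+/+ and 439, 519 and 487 with the label Rnf40-/-, so 40.5% of the mean remained (log2 fold change -1.30, SE 0.09, adjusted p 4.25e-07 by limma). That value covers the whole gene, deleted and remaining exons alike. Fibroblast markers had the largest sum of the marker sets in every library. It was 374050 to 428600 normalized counts over 8 genes in Rnf40+/+ and 197740 to 213560 in Rnf40-/-. All 8 passed the test as lower, against 24.1% of all genes tested. The part of this shift in the results below was not tested. In RNA from whole cultures, fewer cells of a type and less RNA per cell cannot be told apart. Endothelial markers were low in both genotypes, with sums of 46.9 to 143 and 173 to 265 over 4 genes. Of these 3 passed as higher, against 23.3% of all genes tested. Among the 3, Cdh5 and Pecam1 passed the filter on low counts only through Rnf40-/- and so had to differ. The Rnf40+/+ sum of 143 was in replicate 1, where Tek measured 115 against 11.2 and 16.0 in the other Rnf40+/+ libraries. Macrophage markers summed to 929 to 1386 and 1141 to 1182 and epithelial markers to 33.7 to 107 and 39.7 to 64.2. Rnf40+/+ replicate 1 stood apart from the other Rnf40+/+ libraries for the neuronal tubulin Tubb3 (2670 against 1275 and 1353), for Xylt1 (184 against 10.2 and 27.2) and for the Y-linked gene Ddx3y (81.2 against 7.14 and 2.40). By read counts over all genes compared, however, Rnf40+/+ replicate 3 lay farthest from the other Rnf40+/+ libraries. The chi-square per gene was 26.9 and 24.1 between it and replicates 1 and 2, and 7.87 between those. Replicate 3 also had more of the macrophage marker Cd68 (427 against 159 and 189). None of the 10 members lost its call or changed direction without Rnf40+/+ replicate 1 or without Rnf40+/+ replicate 3.

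Syndecans are transmembrane proteins whose outer part carries heparan sulfate chains near its tip and can be cut off by proteases at the cell surface, while the short cytoplasmic tail binds PDZ proteins such as syntenin. Glypicans are held in the outer leaflet of the membrane by a glycosylphosphatidylinositol anchor and carry their chains close to the membrane. Through these chains both families bind growth factors, morphogens and matrix proteins and act as their co-receptors, with glypicans best known for effects on Wnt, Hedgehog, BMP and FGF signals. Sdc4 is the syndecan of focal adhesions, Sdc3 is typical of neural tissue, Sdc2 of mesenchymal cells and Sdc1 of epithelia and plasma cells. Loss of GPC3 in humans causes an overgrowth syndrome.

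In Rnf40-/- MEFs both families changed, by modest amounts. Among the syndecans 3 of 4 fell and none rose, and 4 of 6 glypicans rose and 1 fell; the difference between the families was not tested. Across all 10 members 8 had an adjusted p under 0.05, 4 higher and 4 lower (Gpc5 among the higher, which passed the filter on low counts only through Rnf40-/-), against 47.4% of all genes tested that passed in either direction, 23.3% that passed as higher and 24.1% as lower. These are 3809 and 3955 genes, and scaling to equal totals per library turned the split to 5197 and 2955. Among the members that scaling gave 5 higher and 2 lower, and without Rnf40-/- replicate 1 there were 4 higher and 2 lower. In both cases the lost calls were those of Sdc2 and Sdc3, and with equal totals Sdc4 passed as higher. The count of syndecans that fell therefore depends on the scaling and on that library. The 8 members that passed also had ranges that did not overlap between the genotypes, as 56.5% of all genes tested had. The shares over all genes are not matched for level. The mean counts of the 4 syndecans, Gpc1, Gpc4 and Gpc6 lay at percentiles 88.55 to 99.36 of the genes tested. The members were also chosen with earlier results of these data known, so their shares and those of all genes are not like for like. No member met the criteria of the study for regulated genes, which ask for a mean over 15, an unadjusted p under 0.05 and a log2 change of more than 1 in size and which 4.25% of the genes tested met as higher and 5.70% as lower. The fold change was below 1 on the log2 scale in 9 of the 10 members, and the other, Gpc5, had a mean under 15. Gpc3, just under that limit, met the criteria without Rnf40+/+ replicate 3 or Rnf40-/- replicate 3 and under other scalings.

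**Figure D1:**
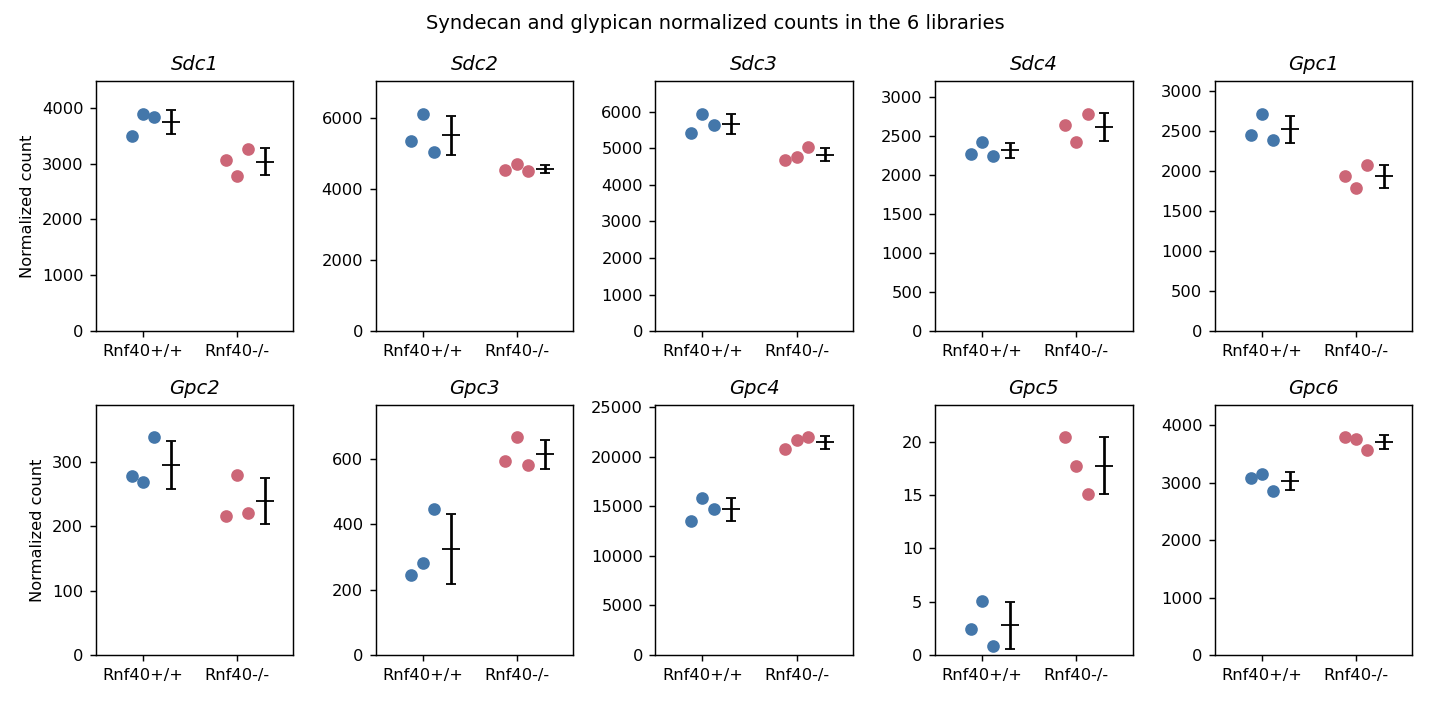
Normalized read counts of the 10 syndecan and glypican genes, one point per library, with Rnf40+/+ and Rnf40-/- side by side, each axis from 0, and the mean with its SD as a bar. The Gpc4 points lie between 13466 and 15819 in Rnf40+/+ and between 20734 and 21932 in Rnf40-/-, whereas the points of Sdc4 and of Gpc2 overlap between the genotypes.

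The start regions of these genes are shown for Sdc1, which fell, and for the Gpc3, Gpc4 and Gpc5 genes, which rose and had the largest changes among the members. Each is the 250 bases before and 50 after the start of the RefSeq gene, in the build GRCm38.p6, read 5′ to 3′ on the strand of the gene. Capitals mark each GC box, GGGCGG or its reverse complement. RefSeq windows matched 7 of the 10 members, and Sdc2, Gpc1 and Gpc6 had none.
Sdc1, chr12:8771146-8771445, plus strand: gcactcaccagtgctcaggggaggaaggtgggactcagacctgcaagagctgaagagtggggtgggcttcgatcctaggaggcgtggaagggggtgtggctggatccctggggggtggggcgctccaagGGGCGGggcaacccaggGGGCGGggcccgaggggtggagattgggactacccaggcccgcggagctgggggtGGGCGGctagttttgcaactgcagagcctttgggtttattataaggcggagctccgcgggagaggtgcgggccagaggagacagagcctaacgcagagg
Gpc3, chrX:52613925-52614224, minus strand: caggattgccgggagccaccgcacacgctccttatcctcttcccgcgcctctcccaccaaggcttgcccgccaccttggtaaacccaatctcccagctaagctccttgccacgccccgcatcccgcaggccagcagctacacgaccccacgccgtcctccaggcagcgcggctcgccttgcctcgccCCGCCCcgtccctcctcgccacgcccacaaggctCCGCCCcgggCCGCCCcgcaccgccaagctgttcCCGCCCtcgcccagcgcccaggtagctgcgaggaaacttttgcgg
Gpc4, chrX:52164874-52165173, minus strand: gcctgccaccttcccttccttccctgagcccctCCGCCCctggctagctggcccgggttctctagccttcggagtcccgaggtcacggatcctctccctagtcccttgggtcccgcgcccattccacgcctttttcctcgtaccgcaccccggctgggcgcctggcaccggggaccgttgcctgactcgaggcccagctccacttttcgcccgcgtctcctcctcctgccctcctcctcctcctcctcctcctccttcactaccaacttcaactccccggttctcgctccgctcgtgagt
Gpc5, chr14:115091965-115092264, plus strand: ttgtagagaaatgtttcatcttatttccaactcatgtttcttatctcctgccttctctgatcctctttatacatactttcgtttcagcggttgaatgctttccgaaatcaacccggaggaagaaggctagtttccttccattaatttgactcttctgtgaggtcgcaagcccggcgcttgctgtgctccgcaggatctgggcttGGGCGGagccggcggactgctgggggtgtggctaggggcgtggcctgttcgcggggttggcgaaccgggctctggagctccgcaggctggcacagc
The Gpc3 window held 4 GC boxes and 30 CpG dinucleotides. In the Gpc4 window there was 1 GC box and 22 CpG, and Sdc1 had 3 GC boxes and 14 CpG. The Gpc5 window had 1 GC box and 17 CpG and was the only one of the 7 to match TATAAA on either strand, as 13.6% of 32851 windows do. That match is the reverse complement, TTTATA, in the upstream part of the window. All 7 windows held at least 1 GC box, as 35.7% of all windows do, and the median window had 7 CpG (quartiles 3 and 20). The forkhead motif GTAAACA on either strand was in none of the 7 and in 3.65% of all windows. At so low a share, 7 windows are too few to show a lack of it. The paper found its forkhead motifs in distal enhancers, which these windows do not cover. GC boxes were present in genes that rose and in genes that fell, but of the latter only Sdc1 and Sdc3 had a window. Whether GC boxes go with the direction of change was not tested.

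Among the syndecans, Sdc1 encodes the founding member of the family. Sdc1 (ENSMUSG00000020592, mm9, chromosome 12, 8778129 to 8800521, plus strand, 5 exons) measured 3500, 3894 and 3840 in Rnf40+/+ and 3060, 2776 and 3268 in Rnf40-/-. All Rnf40-/- values lay below all Rnf40+/+ values. The log2 fold change was -0.31 (SE 0.07, 95% interval -0.47 to -0.14, adjusted p 0.0053 by limma), with 81.0% of the mean left.

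Sdc2 (ENSMUSG00000022261, chromosome 15, 32850478 to 32964485, plus strand, 5 exons) encodes the syndecan of mesenchyme. It measured 5343, 6116 and 5052 in Rnf40+/+ and 4523, 4701 and 4491 in Rnf40-/-, again without overlap. The mean went from 5503 ± 550 to 4571 ± 113 (SD, n = 3), a log2 fold change of -0.26 (SE 0.07, adjusted p 0.0121 by limma). Sdc3 (ENSMUSG00000025743, chromosome 4, 130348452 to 130382234, plus strand, 5 exons), whose product is abundant on axons, measured 5408, 5944 and 5639 against 4687, 4752 and 5034. Its values also did not overlap, and the log2 fold change was -0.23 (SE 0.06, adjusted p 0.0104 by limma). Both calls were lost without Rnf40-/- replicate 1 (adjusted p 0.0539 and 0.0661) and with libraries scaled to equal totals (-0.14 and -0.11, adjusted p 0.135 and 0.151). An opposite-strand transcript, Gm12970, overlaps Sdc3, and whether the counting used strand is not stated in the sources used here.

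Sdc4 (ENSMUSG00000017009, chromosome 2, 164249747 to 164269387, minus strand, 5 exons) encodes the syndecan that joins integrins at focal adhesions, and it did not pass in either direction. Its values were 2276, 2430 and 2246 in Rnf40+/+ and 2645, 2422 and 2788 in Rnf40-/-, where the lowest Rnf40-/- value lay just under the highest Rnf40+/+ value. The log2 fold change was 0.17 (SE 0.07, 95% interval 0.02 to 0.33), and it missed the threshold (adjusted p 0.0595 by limma). It passed as higher with equal totals (0.30, adjusted p 0.00263), with upper-quartile scaling (0.02), in the quasi-likelihood test of edgeR (adjusted p 0.044) and without Rnf40+/+ replicate 2 (0.0484) or Rnf40-/- replicate 2 (0.0362).

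Among the glypicans, Gpc4 had the largest change in mean level per kilobase, whether of transcript or of coding sequence. Gpc4 (ENSMUSG00000031119, X chromosome, 49406198 to 49518429, minus strand, 9 exons) encodes a glypican known as a co-receptor in FGF and Wnt signalling. It measured 13466, 15819 and 14724 in Rnf40+/+ and 20734, 21626 and 21932 in Rnf40-/-. The lowest Rnf40-/- library was well above the highest Rnf40+/+ library. The mean rose 1.46-fold, from 14670 ± 1177 to 21431 ± 623 (SD, n = 3), with a log2 fold change of 0.55 (SE 0.07, adjusted p 8.93e-05 by limma).

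Gpc3 lies beside Gpc4 on the X chromosome (ENSMUSG00000055653, 49625603 to 49967127, minus strand, 8 exons), with 107 kb between the pair. Its product restrains Hedgehog signalling and growth. It measured 246, 280 and 447 in Rnf40+/+ and 594, 667 and 583 in Rnf40-/-, so the groups did not overlap, although Rnf40+/+ replicate 3 was well above the other two. The mean rose 1.89-fold, from 325 ± 108 to 615 ± 45.6 (SD, n = 3), a log2 fold change of 0.97 (SE 0.18, adjusted p 0.000787 by limma). Of all genes tested, 12.6% changed by more in absolute log2 terms. Without Rnf40+/+ replicate 3 the log2 fold change was 1.22. Opposite-strand transcripts, A630012P03Rik and Gm14582, overlap the gene.

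Gpc6 and Gpc5 lie on chromosome 14, on the plus strand, 401 kb apart, and are the longest genes of the group. Gpc6 (ENSMUSG00000058571, 117324519 to 118378751, 9 exons) encodes a glypican needed for growth of the long bones. It measured 3081, 3161 and 2858 in Rnf40+/+ and 3791, 3765 and 3562 in Rnf40-/-, without overlap. The mean rose from 3033 ± 157 to 3706 ± 125 (SD, n = 3), with a log2 fold change of 0.29 (SE 0.06, adjusted p 0.00292 by limma).

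Gpc5 (ENSMUSG00000022112, 115491437 to 116923659, 8 exons) was near the limit of detection. It had 2, 5 and 1 reads in Rnf40+/+ cells and 20, 17 and 16 in Rnf40-/- cells, which is 2.39, 5.10 and 0.80 against 20.4, 17.7 and 15.1 normalized counts. The values did not overlap. Summed over each group, 53 reads stood against 8, and with the difference in depth the ratio was 6.79 with an exact 95% interval of 3.21 to 16.5 that covers counting error only. The log2 fold change on the scale with 1 added was 2.48 (SE 0.55, adjusted p 0.00293 by limma). Gpc5 passed the filter on low counts only through the Rnf40-/- libraries and so had to differ, and with at least 10 reads required in every library it was not tested and 3 members passed as higher and 4 as lower. Beside these low counts, the endothelial genes Cdh5 and Pecam1, a junction protein and an adhesion protein of vessels, went from means of 2.76 and 3.75 to 31.6 and 27.6 and likewise passed the filter only through Rnf40-/-. Of the other endothelial markers, Kdr rose from 27.4 to 84.5 (log2 fold change 1.56, adjusted p 0.000705 by limma) and Tek did not pass (adjusted p 0.186 by limma). Of the macrophage markers, Ptprc (CD45) and Cd14 rose, from 62.6 to 160 and from 113 to 181 (adjusted p 0.00012 and 0.00316 by limma), Adgre1, Csf1r and Cd68 did not pass (log2 fold changes 0.15, -0.21 and -0.22) and Aif1 was not tested. Their part in the Gpc5 result was not tested.

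Gpc1 and Gpc2 lay on the other side. Gpc1 (ENSMUSG00000034220, chromosome 1, 94728222 to 94756775, plus strand, 9 exons) encodes a widely expressed glypican that assists FGF2 and VEGF. It measured 2453, 2714 and 2384 in Rnf40+/+ and 1933, 1791 and 2078 in Rnf40-/-. No Rnf40-/- library reached the lowest Rnf40+/+ library, and the log2 fold change was -0.38 (SE 0.08, adjusted p 0.00148 by limma), the largest fall of the group. Gpc2 (ENSMUSG00000029510, chromosome 5, 138706180 to 138721233, minus strand, 10 exons), a glypican of developing neurons, measured 277, 269 and 338 against 215, 280 and 221. The groups overlapped through 1 library, Rnf40-/- replicate 2. The log2 fold change, -0.31 (SE 0.14), missed the threshold (adjusted p 0.0832 by limma). Without that library it passed (-0.43, adjusted p 0.0336). Gal3st4 overlaps Gpc2 on the same strand, so reads of this pair could be shared.

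**Figure D2:**
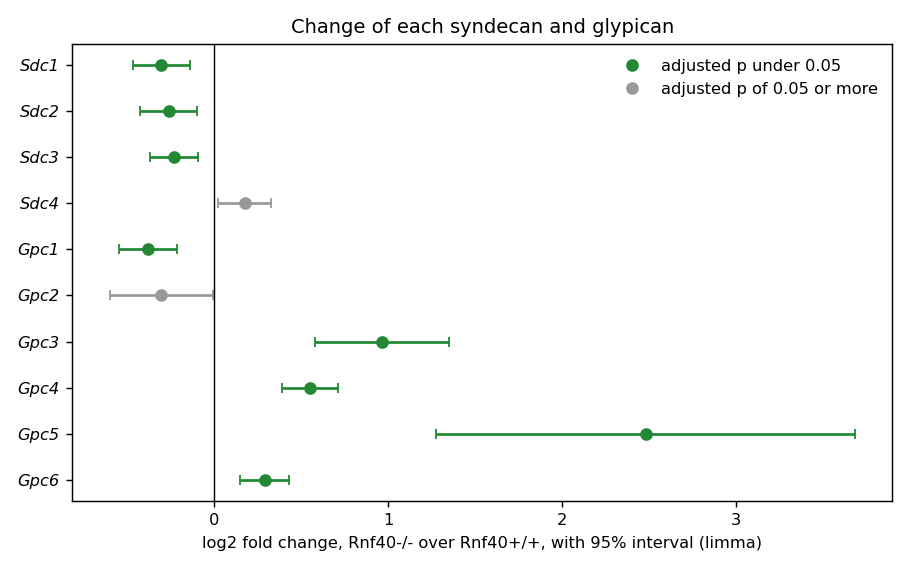
Log2 fold changes, Rnf40-/- over Rnf40+/+, of each syndecan and glypican from limma, with the 95% interval as a bar and the adjusted p as colour. The intervals of Gpc3, Gpc4, Gpc5, Gpc6 and Sdc4 lie above 0 and those of Sdc1, Sdc2, Sdc3, Gpc1 and Gpc2 below it. Of these, Sdc4 and Gpc2 missed the threshold on the adjusted p (0.0595 and 0.0832 by limma). Gpc5 passed the filter on low counts only through Rnf40-/- and so had to differ.

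Levels per kilobase of the longest annotated transcript put Gpc4 first in both genotypes, at a mean of 5534 normalized counts per kb in Rnf40+/+ and 8084 in Rnf40-/-. In Rnf40+/+ it was followed by Sdc2 (1657), Sdc1 (1186), Sdc3 (1139), Sdc4 (943), Gpc1 (700), Gpc6 (449), Gpc3 (146), Gpc2 (114) and Gpc5 (1.30). The libraries of Sdc1 and Sdc3, and those of Gpc3 and Gpc2, overlapped. In Rnf40-/- the order after Gpc4 was Sdc2, Sdc4, Sdc3, Sdc1, Gpc6, Gpc1, Gpc3, Gpc2 and Gpc5, where Sdc4 and Sdc3, Sdc3 and Sdc1, and Gpc6 and Gpc1 overlapped. The order depends on the length used. Per kilobase of coding sequence, Sdc2 (mean 9082, libraries 8336 to 10092) and Gpc4 (mean 8779, libraries 8059 to 9467) overlapped in Rnf40+/+, and Gpc4 was above Sdc2 in Rnf40-/- (12825 against 7544).

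Summed over the 4 genes, syndecan mRNA went from 4925 ± 290 to 4373 ± 151 normalized counts per kb (SD, n = 3). Summed over the 6 genes, glypican mRNA went from 6945 ± 493 to 9549 ± 237. Most of that rise was in Gpc4, which alone went from 5534 ± 444 to 8084 ± 235. The ratio of glypican to syndecan mRNA was 1.36, 1.41 and 1.46 in Rnf40+/+ and 2.13, 2.27 and 2.15 in Rnf40-/-. With coding length in place of transcript length the ratio was 0.57, 0.58 and 0.61 in Rnf40+/+ and 0.87, 0.92 and 0.88 in Rnf40-/-, so which family had more mRNA depends on the length, while the ratio was higher in Rnf40-/- by either. The ratios did not overlap between the genotypes, and no test was made of these sums because the genes were chosen together. Gpc4 alone made 79.6% ± 0.74 of the glypican sum in Rnf40+/+ and 84.7% ± 0.36 in Rnf40-/-. With libraries scaled to equal totals the summed syndecan change was -0.045 on the log2 scale, against -0.17 with the deposited scaling. Sdc4 went from 19.2% ± 0.39 to 24.3% ± 0.94 of the syndecan sum. Annotated protein-coding transcripts run from 638 to 3157 nt for Sdc1, 644 to 4973 nt for Sdc3, 954 to 2130 nt for Gpc5 and 2423 to 6750 nt for Gpc6, so their levels per kb are uncertain.

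**Figure D3:**
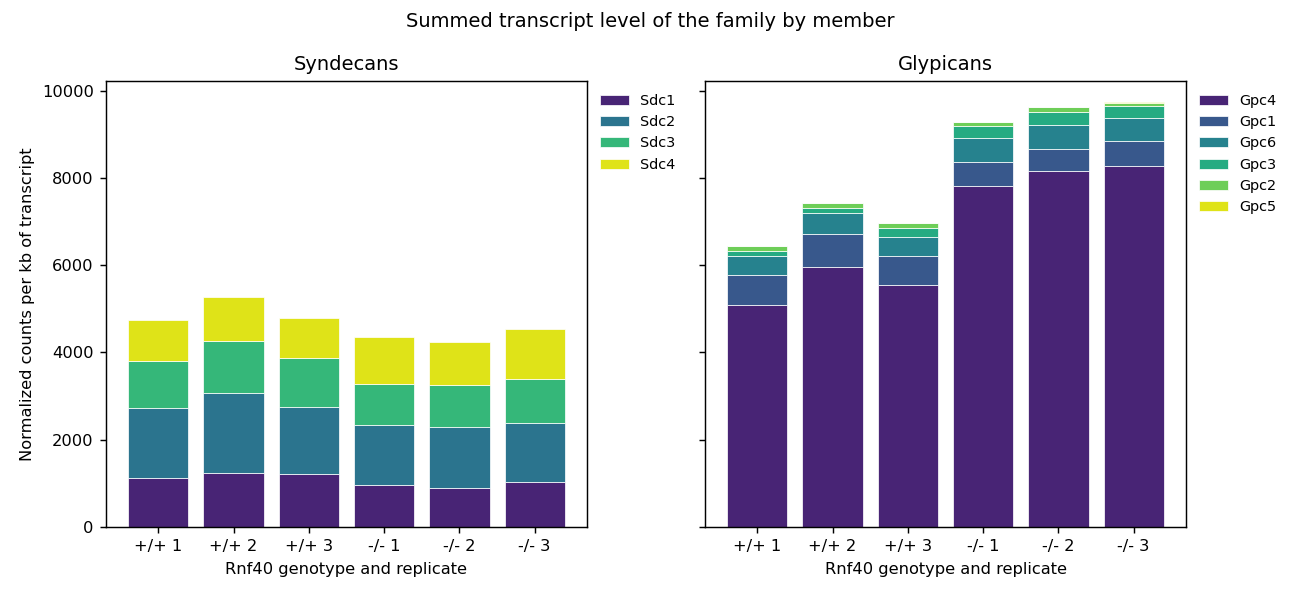
Summed normalized counts per kilobase of the syndecans and of the glypicans, one stack per library, with each gene as a segment. The glypican stacks reach 9282 to 9734 in Rnf40-/- against 6438 to 7423 in Rnf40+/+, and Gpc4 fills most of each.

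Some genes on the same chromosomes as the Gpc3 and Gpc4 pair and the Gpc5 and Gpc6 pair were also examined. They are not in each case the nearest, and 24.1% of all genes tested passed as lower. Hs6st2, a heparan sulfate 6-O-sulfotransferase 371 kb from Gpc4 on the same strand, fell (log2 fold change -0.31, SE 0.07, adjusted p 0.00509 by limma), a call lost with equal totals (0.0546). Mir17hg, the host of the miR-17 to miR-92 cluster 45.5 kb before Gpc5, fell from 106 ± 12.5 to 43.0 ± 11.5 (log2 fold change -1.31, SE 0.23, adjusted p 0.000565 by limma). Tgds, 132 kb from Gpc6, had a log2 fold change of -0.36 and passed as lower (adjusted p 0.00291 by limma). Phf6, 298 kb from Gpc3, also passed as lower (-0.36, adjusted p 0.0289 by limma) although its libraries overlapped, and it did not pass with equal totals (0.131), upper-quartile scaling (0.0537) or without any 1 of 4 libraries (0.0699 to 0.135). Mbnl3, 847 kb from Gpc4, did not pass (0.15, adjusted p 0.335 by limma).

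Heparan sulfate is built on the core proteins by a linkage step, polymerized by exostosins, and modified by deacetylation, epimerization and sulfation. The genes of these steps, with other core proteins, the sulfate donor, the enzymes that trim and release the chains and the partners of the syndecan tail, made 58 listed genes, of which 52 were tested. Of these, 13 passed as higher (25%), 11 as lower (21.2%) and 28 did not pass, shares near the 23.3% and 24.1% of all genes tested, and the median log2 fold change was -0.014, against -0.0035 over all genes. The 13 include Notum, which passed the filter on low counts only through Rnf40-/-. With equal totals 18 were higher and 7 lower, and without Rnf40-/- replicate 1 there were 8 higher and 9 lower. Of the 11 genes of linkage and polymerization, 2 rose (18.2%) and none fell. Ext2, a subunit of the polymerase, rose from 3891 to 5144 (log2 fold change 0.41, adjusted p 0.000471 by limma), while its partner Ext1 measured 4103 and 3861 and did not pass. Extl3, which adds the first sugar of the chain, rose from 2861 to 3534 (0.30, adjusted p 0.00319).

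Of the 12 tested genes of chain modification 4 rose and 3 fell, or 33.3% and 25% against 23.3% and 24.1% of all genes. Hs2st1, the 2-O-sulfotransferase, rose from 3083 to 4558 (log2 fold change 0.57, adjusted p 2.79e-05 by limma), and Hs3st1, a 3-O-sulfotransferase, from 90.2 to 156 (0.78, adjusted p 0.00119). Ndst2, an N-deacetylase and N-sulfotransferase, fell from 901 to 515 (-0.81, adjusted p 2.82e-05), and its family member Ndst4 rose from 14.96 to 38.2 (1.56, adjusted p 0.0184), while Ndst1 and Ndst3 did not pass. Ndst4 had 4, 26 and 17 reads in Rnf40+/+. Its log2 fold change was 0.96 without Rnf40+/+ replicate 1, its call was lost without Rnf40-/- replicate 1 or replicate 2 (1.47 and 1.55, adjusted p 0.0646 and 0.0602), and with 10 reads required in every library it was not tested. The sulfatases Sulf1 and Sulf2, which remove 6-O-sulfate at the cell surface, did not pass, although Sulf2 passed as higher with upper-quartile scaling or equal totals (adjusted p 0.0254 and 0.00291), both passed without Rnf40+/+ replicate 3 (Sulf1 -0.21, adjusted p 0.0274, Sulf2 0.21, adjusted p 0.0212), and Sulf1 passed as lower with the replicate block (0.0468). Hpse, the heparanase that cuts the chains, rose from 13.8 to 40.4 (1.504, adjusted p 0.00801), and without Rnf40-/- replicate 1 its adjusted p was 0.0524. It had 7, 12 and 26 reads in Rnf40+/+ and was likewise not tested with 10 reads in every library.

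Other core proteins that carry heparan sulfate gave 1 rise and 3 falls among 9 tested (11.1% and 33.3%, against 23.3% and 24.1% of all genes). Cd44, whose variant forms carry it, fell from 28452 to 20594 (log2 fold change -0.46, adjusted p 0.000476 by limma). Nrp1, a co-receptor of VEGF, fell from 7427 to 5414 (-0.45, adjusted p 0.00053). Hspg2, perlecan of the basement membrane, fell from 22053 to 18246 (-0.27, adjusted p 0.00774; 0.076 with equal totals), and Col18a1, the source of endostatin, rose from 869 to 1141 (0.40, adjusted p 0.00488). Among the 4 genes that supply the sulfate donor, the transporter Slc35b2 fell (-0.29, adjusted p 0.00266) and its relative Slc35b3 rose (0.33, adjusted p 0.0395), a call lost without any of 4 libraries (lowest and highest adjusted p of these 0.0657 and 0.171). Of the 6 partners of the syndecan tail, Sdcbp (syntenin) and Gipc1 fell (-0.18 and -0.23, adjusted p 0.0316 and 0.0279) and none rose. With equal totals neither passed (adjusted p 0.453 and 0.257), and each call was lost without single libraries, among them Rnf40-/- replicate 1 (0.127 and 0.0647) and replicate 2 (0.0871 and 0.136).

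The list of genes for shedding, release and processing of syndecans and glypicans had 4 that passed as higher and 2 as lower among 7. These are 57.1% and 28.6%, against 23.3% and 24.1% of all genes, with Notum among the higher. The sheddases Adam10 and Adam17, metalloproteases that cut many surface proteins, rose from 3297 to 5014 and from 1099 to 1747 (log2 fold changes 0.60 and 0.67, adjusted p 8.22e-06 and 1.88e-05 by limma). Mmp14, a membrane-bound collagenase that also sheds syndecans, fell from 11082 to 4432 (-1.32, SE 0.07, adjusted p 4.66e-08 by limma). That was the largest fall of a gene in the heparan sulfate lists that passed. Notum is a carboxylesterase that acts on Wnt proteins, and its release of glypicans from their anchor is not settled. It had 6, 3 and 10 reads in Rnf40+/+ and 20, 31 and 31 in Rnf40-/-, or means of 6.07 and 27.3 normalized counts. Like Gpc5 it passed the filter on low counts only through Rnf40-/- and so had to differ, and its call is not read as a result. With 10 reads required in every library, 10 pathway genes passed as higher.

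**Figure D4:**
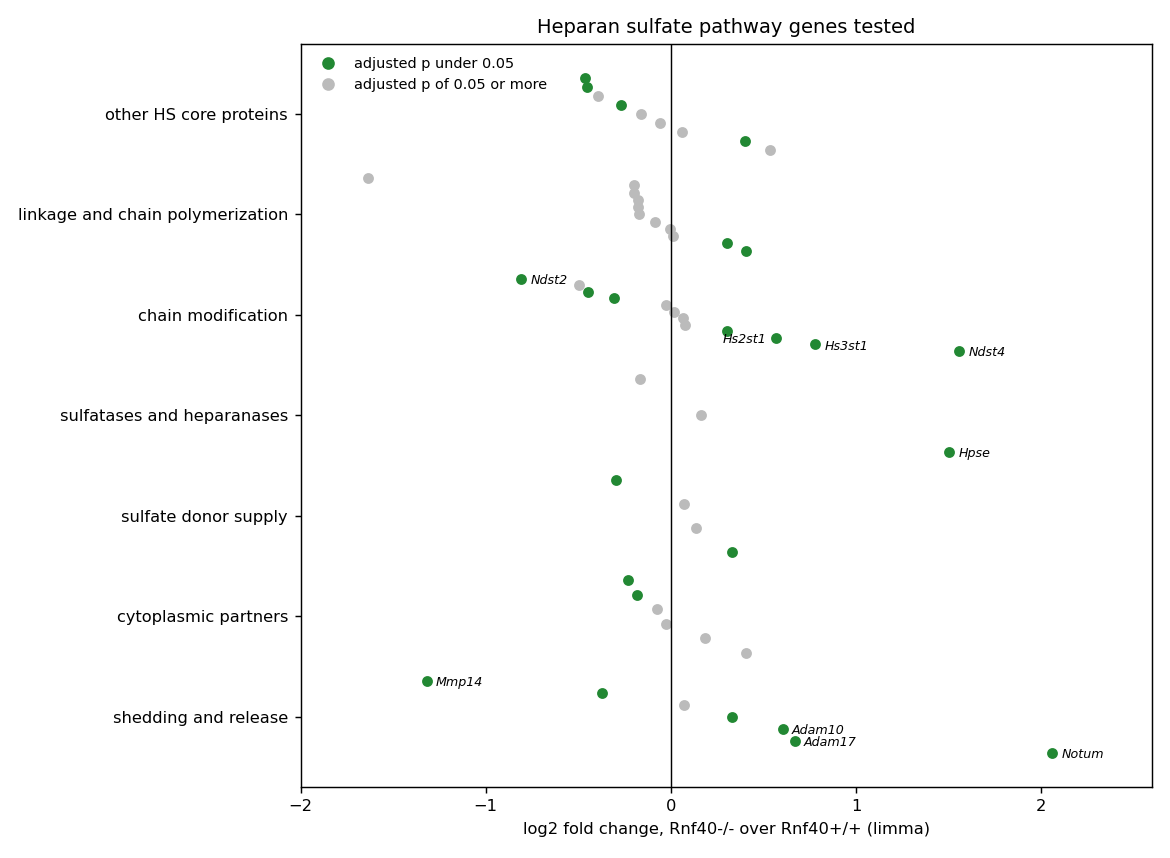
Log2 fold changes of the tested genes of the heparan sulfate pathway, Rnf40-/- over Rnf40+/+, by role, with genes past an adjusted p under 0.05 in green and the others in grey. The median over the 52 genes lies at -0.014, and Notum, Ndst4 and Hpse lie farthest to the right and Mmp14 and Ndst2 farthest to the left among those that passed. Notum passed the filter on low counts only through Rnf40-/-.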

How the data were processed

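RNA-seq reads had been aligned by the authors to mouse transcripts (mm9), and normalization was with DESeq. In the deposited signal, reads per gene are scaled by 1 size factor per library, and the reads were recovered from the smallest step (100% whole within 0.01). The submitters' processing notes name Bowtie2 2.1.0 and DESeq 1.14.0; the tool used for counting is not given in the sources used here. Genes were filtered by filterByExpr of edgeR (4.0.16) and tested with limma (3.58.1; lmFit, eBayes with trend) on log2(normalized count + 1), genotype only, Benjamini-Hochberg over 16378 genes, adjusted p under 0.05. DESeq2 was version 1.42.0, R 4.3.3. The members and lists were chosen with earlier results of these data known. The genes named are all members, Rnf40, and in each pathway list up to 4 genes with the largest changes among those called with a mean above 15, plus genes near the glypicans from a fixed list, relatives that did not pass, and markers beside a result. Levels per kb used the longest spliced transcript of the mm9 annotation; the coding length alternative used its coding sequence. The scripts were tested on simulated counts, in which a small share of genes changed and only well-expressed genes were among them. That test does not cover changes in low counts such as those of Gpc5, or changes in a large share of genes. With 3 libraries a group, the smallest p of an exact permutation test is 0.1, and no such test was run. Alternatives were other scalings, filters, pseudocounts and tools, a replicate block and each library left out.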

Additional observations from a re-analysis of the deposited data

How the results depend on the processing

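Changes are relative to the scaling: equal totals per library put the median log2 fold change of all genes at 0.121, and under it all genes tested gave 5197 higher and 2955 lower against 3809 and 3955. That scaling, added after seeing the data, left 2 members lower, 1 member past the study's criteria, 18 pathway genes higher and 7 lower, a summed glypican log2 change of 0.59 against 0.46 and a summed syndecan change of -0.045 against -0.17. Upper-quartile scaling also gave 1 member past the study's criteria. Sdc2 and Sdc3 lost their calls under total reads (adjusted p 0.135 and 0.151), and Sdc4 passed as higher under total reads and upper quartile (0.00263 and 0.02). Leaving out 1 library gave 2 to 5 members lower, 0 to 1 past the criteria as higher (Gpc3, without Rnf40+/+ replicate 3 or Rnf40-/- replicate 3), and 8 to 12 pathway genes higher (8 without Rnf40-/- replicate 1). The alternatives were followed for the members, Rnf40 and the pathway genes with the largest changes. Nearby genes, relatives and the markers Cdh5, Pecam1, Ptprc and Cd14 were added after seeing the data. Over all of these, 648 values kept their direction and side of the threshold under an alternative. A further 32 lost the call, 11 gained it and 7 changed sign. The 7 were genes that did not pass: Ext1 (0.040 with equal totals), Ndst1 (0.023 with upper-quartile scaling, 0.10 with equal totals, -0.054 to 0.010 with 1 library left out) and Ndst3 (-0.14 to 0.21 with 1 library left out). Whether the replicate numbers pair the libraries is not stated in the sources used here. Same-numbered deviations correlated at 0.0118, 0.0174 and 0.0212 and the others at -0.0531 to 0.0371. With so few libraries this comparison cannot decide the question. With the replicate as a block, 4 members passed as higher and 4 as lower, and 4021 and 4195 of all genes. Depth limits Gpc5, which had 1 to 5 reads in each Rnf40+/+ library.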

Other observations

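The members differ widely in the length of genome they span, and fold changes over all protein-coding genes differed between span classes. A span was available for 13671 protein-coding genes, 83.5% of the genes tested. The median log2 fold change of limma was -0.16 in 3434 genes of up to 10 kb, -0.05 from 10 to 30 kb, 0.08 from 30 to 100 kb, 0.11 from 100 to 300 kb, 0.17 from 300 to 1000 kb (372 genes) and 0.09 over 1000 kb (35 genes). The Gpc5 and Gpc6 spans are 1432 and 1054 kb, Gpc3 spans 342 kb and Gpc4 112 kb, whereas Gpc1, Gpc2, Sdc1 and Sdc4 lie between 10 and 30 kb. Sdc2, at 114 kb, and Sdc3, at 33.8 kb, fell, although the medians of their span classes were above 0. Under scaling to equal totals the median of genes up to 30 kb was 0.03 against -0.09, so its sign depends on the scaling, and that of genes over 300 kb was 0.30 against 0.17. No test was made of this pattern.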
